A study of Mus musculus with 4 samples.

Results

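The Fc gamma receptors are described here through 6 genes: Fcgr1, Fcgr3 and Fcgr4, which encode activating receptors, Fcgr2b, which encodes the inhibitory receptor, Fcer1g, which encodes the common gamma chain, and Fcgrt, which encodes the heavy chain of the neonatal Fc receptor. The genes were chosen by family and not by a cut on their values, though earlier results of these data were known. They are 6 of the 32285 genes in the RNA matrices. Their chromatin was read in 42 accessible regions lying at least in part within 10 kb of a start site of these genes, of which 38 were called in both libraries, among 127216 such shared regions in all. The series holds liver immune cells from C57BL/6J mice, described in the study as 6 to 12 weeks old, on chow with 0.1% DDC (3,5-Diethoxycarbonyl-1,4-Dihydrocollidine, a compound that injures bile ducts) for 0 days (D0) or 5 days (D5). Living cells were sorted as CD45+ CD64- CD11c+ on both days, their nuclei were extracted, and RNA and open chromatin were read from the same nuclei (10x Multiome). There was 1 library per day and layer, and how many mice went into a library was not given in the sources used here, so no test of D5 against D0 is possible and every interval covers counting error only. Day and library cannot be told apart.

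Fc gamma receptors are surface proteins of immune cells that bind the constant part of IgG. The activating receptors pair with the common gamma chain, whose cytoplasmic motif recruits the kinase Syk, whereas the inhibitory receptor carries its own motif and recruits the phosphatase encoded by Inpp5d. In dendritic cells the balance between both arms sets how strongly antigen bound in immune complexes matures the cell. The neonatal Fc receptor works inside endosomes, pairs with beta-2 microglobulin, and spares IgG and albumin from breakdown. Fcgr1 encodes CD64, the high-affinity receptor and a surface marker of macrophages, which was the protein excluded in the sort.

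Fcgr2b, Fcgr4, Fcgr3 and Fcer1g lie on chromosome 1, Fcgr1 on chromosome 3 and Fcgrt on chromosome 7. In the deposited files (build mm10) the start sites were chr1:170976127-170976547 for Fcgr2b on the minus strand, chr1:171018920 for Fcgr4 on the plus strand, chr1:171059403 for Fcgr3 on the minus strand, chr1:171234307-171234365 for Fcer1g on the minus strand, chr3:96293969 for Fcgr1 on the minus strand and chr7:45103745-45103851 for Fcgrt on the minus strand. The sequence just before the start is shown for the 3 activating receptors, because all of them, and no other member, held the letters GAGGAAG on either strand between 250 bases before and 50 bases after the start. GAGGAAG is the core recognised by PU.1, a transcription factor of myeloid cells. Fcgr3 had 2 RefSeq entries, and only the one starting at the site in the files was read here. The sequences are RefSeq's (GRCm38.p6), 120 bases long, read along the gene, and capitals mark CTTCCTC, the same core on the opposite strand.
Fcgr1, chr3:96293970-96294089: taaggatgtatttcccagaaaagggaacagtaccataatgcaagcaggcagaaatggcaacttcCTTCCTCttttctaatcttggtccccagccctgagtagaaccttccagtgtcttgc
Fcgr3, chr1:171059404-171059523: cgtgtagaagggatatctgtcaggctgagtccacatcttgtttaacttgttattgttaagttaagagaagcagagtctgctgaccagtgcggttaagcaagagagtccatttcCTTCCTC
Fcgr4, chr1:171018800-171018919: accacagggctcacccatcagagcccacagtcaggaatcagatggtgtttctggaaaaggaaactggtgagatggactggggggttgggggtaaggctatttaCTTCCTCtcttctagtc
Counted from the RefSeq start, the core lay at bases -56 to -50 in Fcgr1, -7 to -1 in Fcgr3 and -23 to -17 in Fcgr4. Among all 32851 promoters of the same length, 13.6% held it. The shorter ETS core AGGAA, which lies inside GAGGAAG, was found in all 6 members and in 66.7% of promoters. The C/EBP letters TTGCNNAA were found in Fcgr3 and Fcgrt (10.8% of promoters), the interferon-gamma element TTCNNNGAA in Fcgr1 (8.30%) and the interferon-response letters GAAANNGAA in Fcgr4 (8.56%), where they overlap an AGGAA. The AP-1 letters TGANTCA were found in no member and in 7.81% of promoters. These matches describe letters only.

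The RNA libraries held 16260 called barcodes with 44496348 UMIs at D0 and 27873 with 94374499 UMIs at D5, although 10000 nuclei were aimed for per library. After filters and removal of 23.1% and 25.5% of the barcodes as doublets, 10982 and 19832 nuclei remained, with a median of 1732 and 2556 UMIs, and 591 barcode sequences occurred in both libraries. Nuclei were clustered without the 6 genes and named from marker genes into 10 classes, 9 of which had enough counts on both days. The largest was cDC2-like (type 2 conventional dendritic cells) with 2400 nuclei at D0 and 8674 at D5. The others were cDC1-like (1564 and 2832), pDC-like (plasmacytoid, 2335 and 2021), NK cell-like (1450 and 1111), macrophage-like (776 and 1231), preDC-like (209 and 1463), Ccr7+ DC-like (314 and 970), nonclassical monocyte-like (104 and 179) and T cell-like nuclei (353 and 428). The tenth class, neutrophil-like, held 5 nuclei at D0 and 88 at D5, and 1472 and 835 nuclei stayed unnamed. The cDC2-like class joined 4 clusters that weighed differently by day, that led by Dab2 holding 299 nuclei at D0 and 2611 at D5. Against the sort, macrophage-like nuclei expressed macrophage markers at a summed 1324 and 1788 CPM (a gene's UMIs scaled to a total of 1000000 UMIs in the class), and Fcgr1 was read in them. They also carried cDC2 markers at a summed 1248.5 and 1202.6 CPM and classical monocyte markers at 1791.6 and 1485.2 CPM. Ptprc, which encodes CD45, was read in each of the 9 classes at 888 CPM or more, and Itgax, which encodes CD11c, was lowest in pDC-like nuclei at 112 and 97.2 CPM. The T cell-like class also held innate-like lymphocyte genes (Tcrg-C1, Trdc, Klra7), and the preDC-like class also carried pDC markers at a summed 7756 and 4499 CPM.

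Over all kept nuclei Fcgr1 gave 125 UMIs at D0 and 885 at D5, Fcgr2b 2543 and 8306, Fcgr3 828 and 1840, Fcgr4 315 and 856, Fcer1g 13541 and 45810, and Fcgrt 1280 and 4850. Levels below are CPM with the exact 95% Poisson interval, and they are compared between classes and days, not between genes, since the counts are not per gene length. Free RNA was gauged in 2 ways, from barcodes with at most 100 UMIs that were not called as nuclei, and from T cell-like nuclei, since T cells lack the IgG receptors in textbook accounts. The T cell-like class also carried NK cell markers at a summed 6322 and 5822 CPM (7441 and 6497 in NK cell-like nuclei), so for Fcgr3 and Fcer1g, which NK cells express, the cDC1-like level is given beside it.

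**Figure D1:**
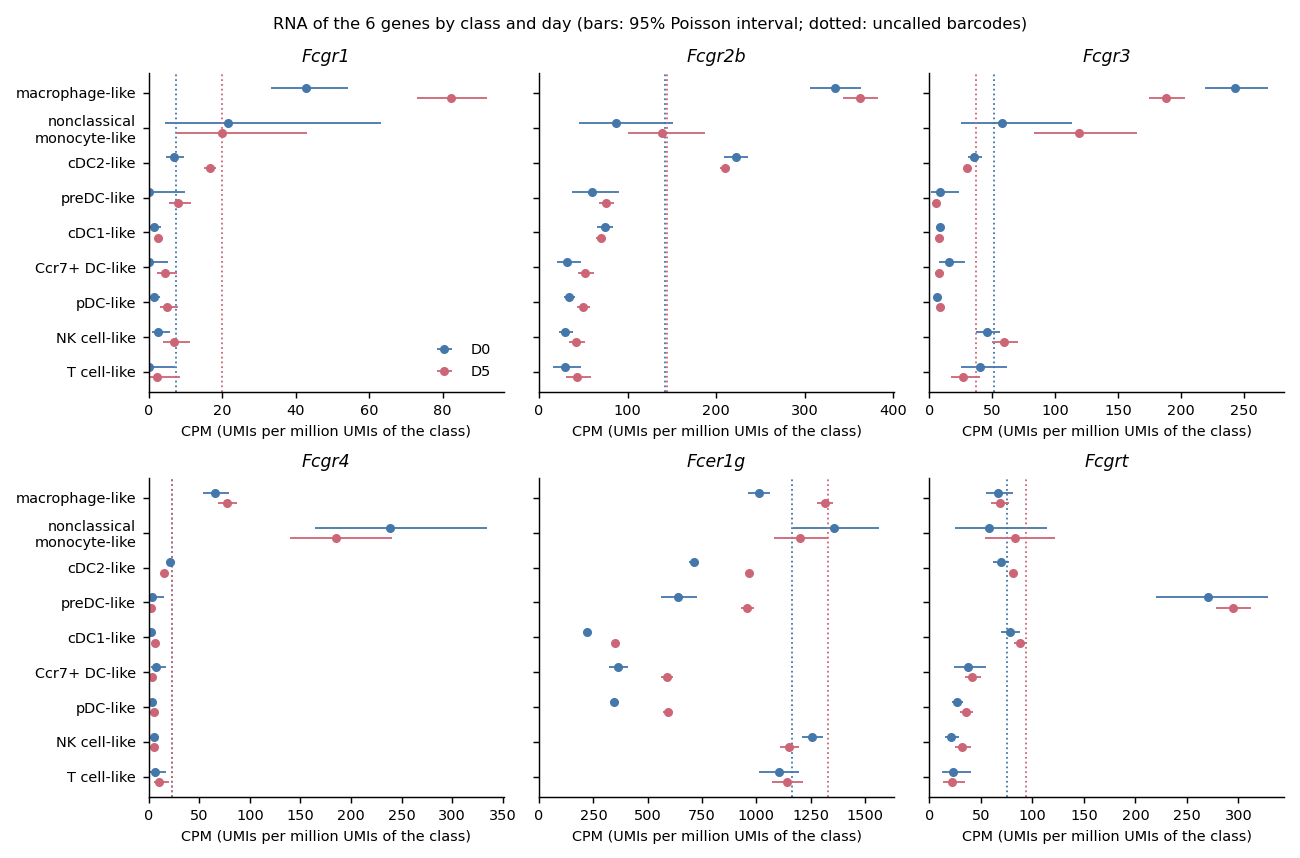
RNA level of each gene in CPM (horizontal axis) by class (rows) at D0 (blue) and D5 (red), with 95% Poisson intervals for counting error; dotted lines mark the level in uncalled barcodes of the same library. Fcgr1, Fcgr2b and Fcgr3 are highest in macrophage-like nuclei, Fcgr4 in nonclassical monocyte-like nuclei and Fcgrt in preDC-like nuclei, while Fcer1g is lowest in cDC1-like nuclei. For Fcgr1 at D0 the nonclassical monocyte-like interval holds the whole macrophage-like interval.

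Fcgr1, the gene of the sorted-out protein, was highest in macrophage-like nuclei, at 42.8 CPM (33.1–54.3) at D0 and 82.2 CPM (73.1–92.1) at D5. cDC2-like nuclei held 6.81 CPM (4.66–9.61) at D0 and 16.7 CPM (15.2–18.4) at D5. Macrophage-like nuclei thus stood above cDC2-like nuclei by a log2 ratio of 2.65 at D0 and 2.30 at D5. Nonclassical monocyte-like nuclei gave 21.7 and 19.9 CPM from 3 and 6 UMIs, and their intervals reached from 4.47 to 63.3 and from 7.29 to 43.2, so they could not be told from cDC2-like nuclei. At D0 their interval also held the whole macrophage-like interval, so these classes could not be ranked on that day. At D5 they were below macrophage-like nuclei. At D5 the next class, preDC-like at 8.03 CPM (5.46–11.4), was below cDC2-like nuclei and overlapped NK cell-like nuclei at 6.77 CPM (3.79–11.2). In cDC1-like nuclei the level was 1.41 and 2.61 CPM. T cell-like nuclei held no Fcgr1 UMI at D0, which allows up to 5.79 CPM, and 2.31 CPM (0.28–8.36) at D5. preDC-like nuclei also held none at D0, which allows up to 8.11 CPM, so no fold is given there. Uncalled barcodes carried 7.35 CPM at D0 and 19.8 CPM at D5, overlapping the cDC2-like level on either day.

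Since cDC2-like nuclei outnumbered macrophage-like nuclei, they supplied many of the reads of the gene. Macrophage-like nuclei held 67 of the 125 Fcgr1 UMIs at D0 and cDC2-like nuclei 32 (25.6%), whereas at D5 cDC2-like nuclei held 417 of 885 (47.1%) and macrophage-like nuclei 296. The cDC2-like class made up 21.9% of kept nuclei at D0 and 43.7% at D5, so its shares of Fcgr1 UMIs were near its share of nuclei. Over all kept nuclei Fcgr1 was at 5.40 and 16.0 CPM, beside 6.81 and 16.7 CPM in cDC2-like nuclei. After thinning each nucleus to 1000 UMIs, an Fcgr1 UMI was seen in 0.458% of cDC2-like nuclei at D0 and 1.57% at D5 (1.29% and 4.46% without thinning, at median depths of 1810.5 and 2663.5 UMIs). In macrophage-like nuclei the shares were 3.61% and 7.80% (7.09% and 18.8% without thinning). Among T cell-like nuclei, at median depths of 1224 and 1730 UMIs, they were 0 of 353, which allows up to 0.850%, and 0.234%. The D0 share in cDC2-like nuclei is under that limit and is not read as expression.

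Fcgr3, which encodes the low-affinity activating receptor and is the Fc gamma receptor of mouse NK cells, was highest in macrophage-like nuclei at 243 CPM (219–269) at D0 and 188 CPM (175–203) at D5. In NK cell-like nuclei it stood at 45.9 CPM (37.1–56.2) and 59.1 CPM (49.4–70.2). Levels in cDC2-like nuclei were 35.8 CPM (30.6–41.6) and 30.1 CPM (28.0–32.4), and NK cell-like nuclei lay above them at D5 and overlapped them at D0. Macrophage-like nuclei exceeded cDC2-like nuclei by a log2 ratio of 2.77 and 2.65, or 2.39 and 2.13 without removal of doublets. With the T cell-like level subtracted it was 5.52 at D5, where little of the cDC2-like level was left. That class also carried NK cell markers, so its Fcgr3 level need not be background. Nonclassical monocyte-like nuclei rested on 8 and 36 UMIs (57.7 and 119 CPM) and, at D5, neutrophil-like nuclei on 22 (131 CPM). The dendritic classes other than cDC2-like were between 5.44 and 15.7 CPM on both days. T cell-like nuclei, at 40.5 CPM (25.1–61.9) and 26.6 CPM (16.9–39.9), overlapped the cDC2-like level, and uncalled barcodes held 51.5 and 36.7 CPM. In cDC1-like nuclei the level was 8.15 CPM (5.46–11.7) and 7.62 CPM (5.94–9.63), below cDC2-like nuclei with no overlap. After thinning, 3.00% and 2.64% of cDC2-like nuclei held a UMI against 0.703% and 0.777% of cDC1-like nuclei and 3.40% and 2.80% of T cell-like nuclei.

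Fcgr4, the gene of a receptor for IgG2 antibodies, was the only member with its highest level in nonclassical monocyte-like nuclei on both days, at 238 CPM (164–335) at D0 and 185 CPM (140–241) at D5. Macrophage-like nuclei followed at 65.7 CPM (53.7–79.7) and 77.5 CPM (68.6–87.1), below them on both days. cDC2-like nuclei were at 21.3 CPM (17.3–25.9) and 14.7 CPM (13.3–16.3), which nonclassical monocyte-like nuclei exceeded by a log2 ratio of 3.48 and 3.65. Neutrophil-like nuclei at D5 rested on 5 UMIs (29.8 CPM, 9.68–69.6) and overlapped cDC2-like nuclei. T cell-like nuclei had 5.79 CPM (1.19–16.9) at D0, below the cDC2-like level, and 10.4 CPM (4.76–19.8) at D5, overlapping it. Uncalled barcodes held 22.5 CPM (17–29.0) and 23.4 CPM (19.5–27.8), overlapping the cDC2-like level at D0 and above it at D5. The other dendritic classes and NK cell-like nuclei were at or below 7.16 CPM. After thinning, 24.0% and 20.1% of nonclassical monocyte-like nuclei held a UMI against 2.17% and 1.57% of cDC2-like nuclei and 0.850% and 0.234% of T cell-like nuclei.

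Fcgr2b was read in macrophage-like nuclei at 334 CPM (306–364) at D0 and 362 CPM (343–382) at D5. Second on both days was cDC2-like, at 222 CPM (209–236) and 210 CPM (204–216). The cDC2-like level exceeded that of cDC1-like nuclei, 74.2 CPM (65.5–83.7) and 70.0 CPM (64.7–75.6), by a log2 ratio of 1.58 on both days. Nonclassical monocyte-like nuclei, from 12 and 42 UMIs, had 86.6 CPM (44.8–151) and 139 CPM (100–188). preDC-like nuclei, at 59.5 CPM (37.3–90.0) and 75.9 CPM (67.4–85.1), could not be told from cDC1-like nuclei. pDC-like, Ccr7+ DC-like and NK cell-like nuclei lay between 29.8 and 52.3 CPM and overlapped T cell-like nuclei at 28.9 CPM (16.2–47.7) and 42.8 CPM (30.1–59.0). Uncalled barcodes held 142 and 144 CPM. After thinning, 18.8% and 17% of cDC2-like nuclei had an Fcgr2b UMI (29.4% and 37.9% without thinning), compared with 3.12% and 4.44% of T cell-like nuclei.

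The balance of both arms was followed as the share of Fcgr2b among Fcgr2b and Fcgr3 UMIs, with its exact binomial 95% interval. The share was 86.1% (84.1–88.0) at D0 and 87.4% (86.6–88.3) at D5 in cDC2-like nuclei and 90.1% and 90.2% in cDC1-like nuclei. Macrophage-like nuclei had 57.9% (54.6–61.1) and 65.8% (63.6–67.9), with intervals that did not overlap between days. The lowest values were those of NK cell-like nuclei, 39.4% (31.6–47.5) and 41.5% (35.0–48.3). T cell-like nuclei overlapped them, at 41.7% (25.5–59.2) at D0 and, narrowly, at 61.7% (48.2–73.9) at D5. Nonclassical monocyte-like nuclei, at 60.0% (36.1–80.9) and 53.8% (42.2–65.2), overlapped them too, as did neutrophil-like nuclei at D5, at 51.1% (35.8–66.3). Ccr7+ DC-like nuclei showed 66.7% (48.2–82.0) from 33 UMIs at D0 and 87.7% (81.7–92.3) at D5, which overlap narrowly. In NK cell-like nuclei the shares became 68.6% and 71.7% without removal of doublets. At D5 macrophage-like nuclei then had 68.6%, so NK cell-like nuclei were not lowest in that setting. In pDC-like, Ccr7+ DC-like and NK cell-like nuclei the Fcgr2b level overlapped that of T cell-like nuclei, so these shares rest on counts near the background. The cDC2-like share has a like limit, since its Fcgr3 level overlapped that of T cell-like nuclei and was not above uncalled barcodes. Uncalled barcodes held 368 Fcgr2b and 133 Fcgr3 UMIs at D0 and 778 and 198 at D5. Fcgr2b and Fcgr3 are close paralogs, and how their reads were divided where sequence is shared was not given in the sources used here, so the shares compare classes and days under the same counting.

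**Figure D2:**
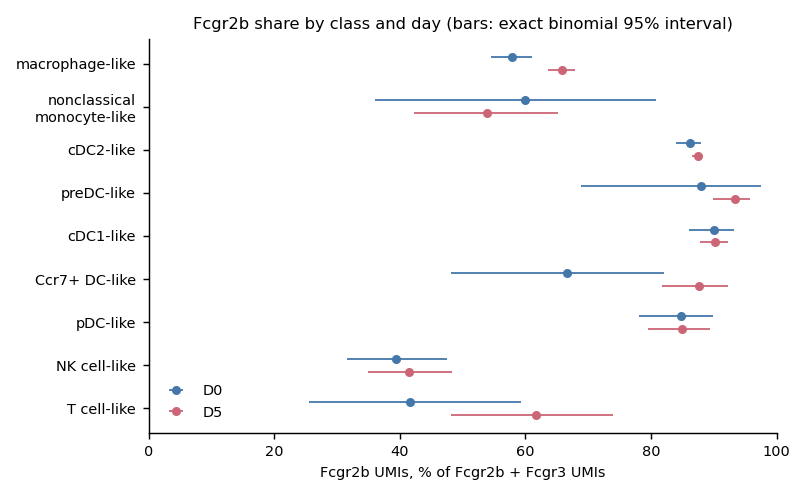
Fcgr2b UMIs in percent of Fcgr2b and Fcgr3 UMIs (horizontal axis) by class (rows) at D0 (blue) and D5 (red), with exact binomial 95% intervals for counting error. Dendritic classes lie to the right, at 86.1% and 87.4% for cDC2-like nuclei, except Ccr7+ DC-like at D0 (66.7%), and NK cell-like nuclei to the left, at 39.4% and 41.5%.

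Fcer1g, the signalling chain shared by the activating receptors and by several other receptors of innate cells, was read in every class. At D0 nonclassical monocyte-like (1357 CPM), NK cell-like (1257) and T cell-like nuclei (1102) were ahead of macrophage-like nuclei (1012), and the first and second overlapped, as did the third and macrophage-like nuclei. At D5 neutrophil-like (1407 CPM, 236 UMIs), macrophage-like (1315), nonclassical monocyte-like (1201), NK cell-like (1152) and T cell-like nuclei (1140) each overlapped the next. cDC2-like nuclei held 711 CPM (688–736) at D0 against 964 CPM (952–976) at D5, and preDC-like nuclei 638 and 959 CPM, which overlapped them at D5 and at D0. The lowest class was cDC1-like, at 220 CPM (205–236) and 350 CPM (338–363). Uncalled barcodes held 1163 and 1330 CPM, more than the dendritic classes. Because the T cell-like class carried innate-like genes, the cDC1-like level was set beside the others, and cDC2-like nuclei exceeded it on both days. NK cell-like nuclei stood above cDC2-like nuclei by a log2 ratio of 0.82 at D0 and 0.26 at D5, which became 0.050 and -0.13 without removal of doublets, and 0.56 and -0.055 with TMM scaling (another way to scale libraries). After thinning, 47.3% and 60.1% of cDC2-like nuclei had a UMI against 20.7% and 28.1% of cDC1-like nuclei, at median depths of 2065 and 3020 UMIs in the latter.

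Fcgrt was highest in preDC-like nuclei on both days, at 270 CPM (220–329) and 295 CPM (278–313). The ratio of preDC-like to cDC2-like nuclei was 1.97 on the log2 scale at D0 and 1.86 at D5. The next classes at D0, cDC1-like (78.1 CPM), cDC2-like (69.2), macrophage-like (67.0) and nonclassical monocyte-like (57.7), could not be told from one another. At D5 cDC1-like (88.1 CPM, 82.1–94.4) and cDC2-like nuclei (81.2 CPM, 77.7–84.8) overlapped too, and macrophage-like nuclei (68.6 CPM, 60.3–77.7) just touched the latter. NK cell-like and T cell-like nuclei were lowest, between 21.5 and 32 CPM. Uncalled barcodes held 75.5 CPM (65.3–86.9) and 93.6 CPM (85.6–102), and of the classes named here preDC-like nuclei alone were above them. Fcgrt had a UMI in 21.1% and 24.9% of thinned preDC-like nuclei, 6.50% and 7.59% of cDC2-like nuclei and 2.55% and 1.87% of T cell-like nuclei.

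Within cDC2-like and preDC-like nuclei, a second clustering without the 6 genes gave 5 groups. Clec10a+ cDC2, which carry a C-type lectin typical of mature tissue cDC2, formed 2 of them, led by Mir155hg and Tnip3 (1041 nuclei at D0 and 3231 at D5) and by Hspa1a and Hspa1b (649 and 2319). A preDC group was led by Gria3 and Blnk (208 and 1524), and 89.4% of its nuclei came from the preDC-like class, so its levels largely repeat those of that class. The 2 remaining groups stayed unnamed, one led by Rhoq and Lzts1 (342 and 2671) and the other by Frmd5 and Adgrl3 (369 and 392), and NK cell markers were raised in the latter. Fcgr2b was highest in both Clec10a+ groups, at 271 and 251 CPM at D0 and 246 and 218 CPM at D5, against 159 and 175 CPM in the group led by Rhoq. The preDC group (56.6 CPM, 35.0–86.4, and 77.6 CPM, 69.3–86.7) and the group led by Frmd5 (71.8 CPM, 52.8–95.5, and 102 CPM, 83.9–123) were lower and overlapped each other. Fcgr3 was low in the same groups, at 8.08 and 6.12 CPM in the preDC group (3 and 25 UMIs) and 6.11 and 10.2 CPM in that led by Frmd5 (4 and 11 UMIs). Fcgr4 was at 2.69 and 2.94 CPM in the preDC group, from 1 and 12 UMIs. Fcgrt stood at 269 and 284 CPM in the preDC group and between 35.1 and 87.0 CPM in the other groups.

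**Figure D3:**
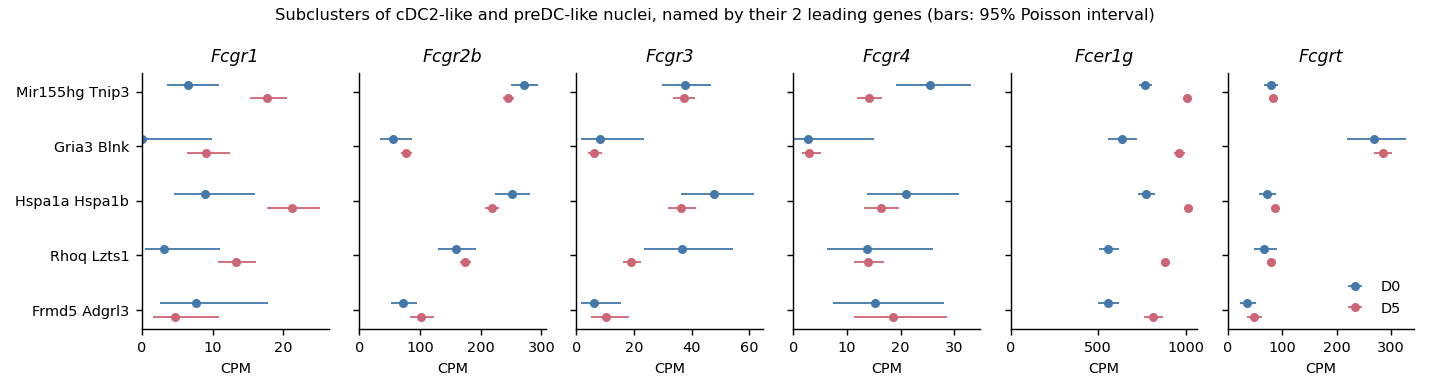
RNA level in CPM (horizontal axes) of each gene in the 5 groups of cDC2-like and preDC-like nuclei, named by their 2 leading genes (rows), at D0 (blue) and D5 (red), with 95% Poisson intervals for counting error. The preDC group (Gria3 Blnk), 89.4% of it from the preDC-like class, stands apart by high Fcgrt, 269 and 284 CPM. It shares low Fcgr2b (56.6 and 77.6 CPM) with the group led by Frmd5 and Adgrl3 (71.8 and 102 CPM).

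At D5 against D0, Fcgr1 was higher in cDC2-like nuclei by a log2 ratio of 1.30 (0.78 to 1.86) and in macrophage-like nuclei by 0.94 (0.56 to 1.35). Uncalled barcodes were also higher at D5 (7.35 against 19.8 CPM), and their part in the cDC2-like value was not tested. Macrophage markers in cDC2-like nuclei summed to 121 CPM at D0 and 67.8 CPM at D5, with none of the 11 genes at 0 on either day. In macrophage-like nuclei these markers summed to 1324 and 1788 CPM, cDC1 markers to 1282 and 816 CPM and Ccr7+ DC markers to 604 and 296 CPM. Their part in the macrophage-like ratio was not tested. In the groups of cDC2-like nuclei the ratio was 1.45 in that led by Mir155hg, 1.25 in that led by Hspa1a and 2.12 in that led by Rhoq, each beyond its interval. The last rests on 2 UMIs at D0 and 101 at D5 (0.23 to 5.18). The group led by Frmd5 had 5 UMIs on each day (7.64 and 4.64 CPM). pDC-like nuclei gave 1.97 (0.50 to 3.75), from 5 and 19 UMIs and 1.28 and 5.02 CPM, which overlap the T cell-like level.

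Fcer1g was higher at D5 in each of the 5 dendritic classes and in macrophage-like nuclei. The log2 ratio was 0.77 (0.68 to 0.87) in pDC-like, 0.70 (0.50 to 0.89) in Ccr7+ DC-like, 0.67 (0.56 to 0.78) in cDC1-like, 0.59 (0.40 to 0.78) in preDC-like, 0.44 (0.39 to 0.49) in cDC2-like and 0.38 in macrophage-like nuclei. cDC1-like nuclei, whose Fcer1g level was lowest, thus had a higher ratio than cDC2-like nuclei, and uncalled barcodes went from 1163 to 1330 CPM. The part of free RNA in these ratios was not tested. T cell-like nuclei gave 0.05 (-0.10 to 0.20), or 0.23 (0.08 to 0.38) with TMM scaling. In NK cell-like nuclei it was -0.13 (-0.21 to -0.05), which turned to 0.044 with TMM scaling and to 0.21 without removal of doublets.

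Fcgr2b in cDC2-like nuclei was at -0.08 (-0.18 to 0.01), a value that became 0.14 (0.04 to 0.23) with TMM scaling. In both Clec10a+ groups it was at -0.14 (-0.27 to -0.01) and -0.20 (-0.38 to -0.02), sizes below the 0.22 by which TMM scaling raised each ratio of the class. The group led by Rhoq was at 0.14 (-0.15 to 0.44) and that led by Frmd5 at 0.51 (0.002 to 1.03), so the class value joins groups of either sign. Fcgr2b was higher in Ccr7+ DC-like (0.73), pDC-like (0.54) and NK cell-like nuclei (0.49), where its level overlapped that of T cell-like nuclei. Fcgr3 in macrophage-like nuclei was lower at D5, at -0.37 (-0.55 to -0.18), and at -0.08 (-0.27 to 0.10) with TMM scaling. In the group led by Rhoq it was at -0.94 (-1.57 to -0.26). The groups led by Mir155hg at -0.01 (-0.36 to 0.35), by Hspa1a at -0.40 (-0.82 to 0.04) and by Frmd5 at 0.74 (-1.01 to 2.85) stayed within their intervals. Fcgr4 was lower in cDC2-like nuclei, at -0.53 (-0.85 to -0.20), and at -0.31 (-0.64 to 0.02) with TMM scaling, and in the group led by Mir155hg at -0.86 (-1.32 to -0.38). The groups led by Hspa1a at -0.37 (-1.01 to 0.31), by Rhoq at 0.02 (-0.96 to 1.19) and by Frmd5 at 0.28 (-0.88 to 1.54) stayed within their intervals. It was higher in cDC1-like nuclei, by 1.78 (0.56 to 3.28), but from 6 and 53 UMIs and at 1.69 and 5.77 CPM, no more than in T cell-like nuclei. Fcgrt in cDC2-like nuclei was at 0.23 (0.06 to 0.40).

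These ratios sit on a scale where the median gene was lower at D5, although CPM fixes the total of each class and day. The median over all genes means those with 20 or more UMIs over both days and a UMI on each day. With CPM it was -0.18 in cDC2-like, -0.23 in cDC1-like, -0.22 in macrophage-like, -0.12 in pDC-like and -0.07 in Ccr7+ DC-like nuclei. TMM factors raised every ratio of a class by 0.17 to 0.28 (0.22 in cDC2-like nuclei). Calls here mean a difference of at least 1.5-fold among genes with 20 or more UMIs over both days. In cDC2-like nuclei 1 of 6 members was higher (Fcgr1) and 0 lower, beside 6.09% and 21.1% of all genes. Macrophage-like nuclei had 1 higher (Fcgr1) and 0 lower of 6, beside 5.78% and 22.3%, and cDC1-like nuclei 3 higher (Fcgr1, Fcgr4, Fcer1g) and 0 lower, beside 4.94% and 22.7%. In pDC-like nuclei 2 of 6 were higher (Fcgr1, Fcer1g) and 0 lower, beside 5.86% and 12.1%. Ccr7+ DC-like nuclei had 2 higher (Fcgr2b, Fcer1g) and 1 lower (Fcgr3) of 4, beside 12.8% and 15.8%. Over the 9 classes, 14 of 48 pairs of gene and class were higher and 2 lower, beside 8.3% and 19% of all such pairs. The 14 include Fcgr1 in preDC-like nuclei, with no UMI at D0. With a count of 0 set to the floor of 3 counts, a setting chosen after seeing the data, 13 were higher and 2 lower, beside 8.18% and 19% of all pairs. Those 13 were 5 pairs of Fcgr1, 4 of Fcer1g, 2 of Fcgr2b and 1 each of Fcgr3 and Fcgr4, and the pairs share the same 2 libraries. Of the 14 higher pairs 9 were beyond their counting interval, and of the 2 lower pairs 0. How many of all pairs were beyond both limits was not computed, so the 9 has no background share. With TMM scaling 25 were higher and 1 lower, beside 15.4% and 10.7% of all pairs, and without removal of doublets 22 and 0, beside 8.18% and 20.1%. In the latter setting nuclei were clustered and named anew, so the classes differed in make-up. No nonclassical monocyte-like class was named there, so the 22 is not out of the same 48 pairs, and the number of member pairs counted was not recorded.

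**Figure D4:**
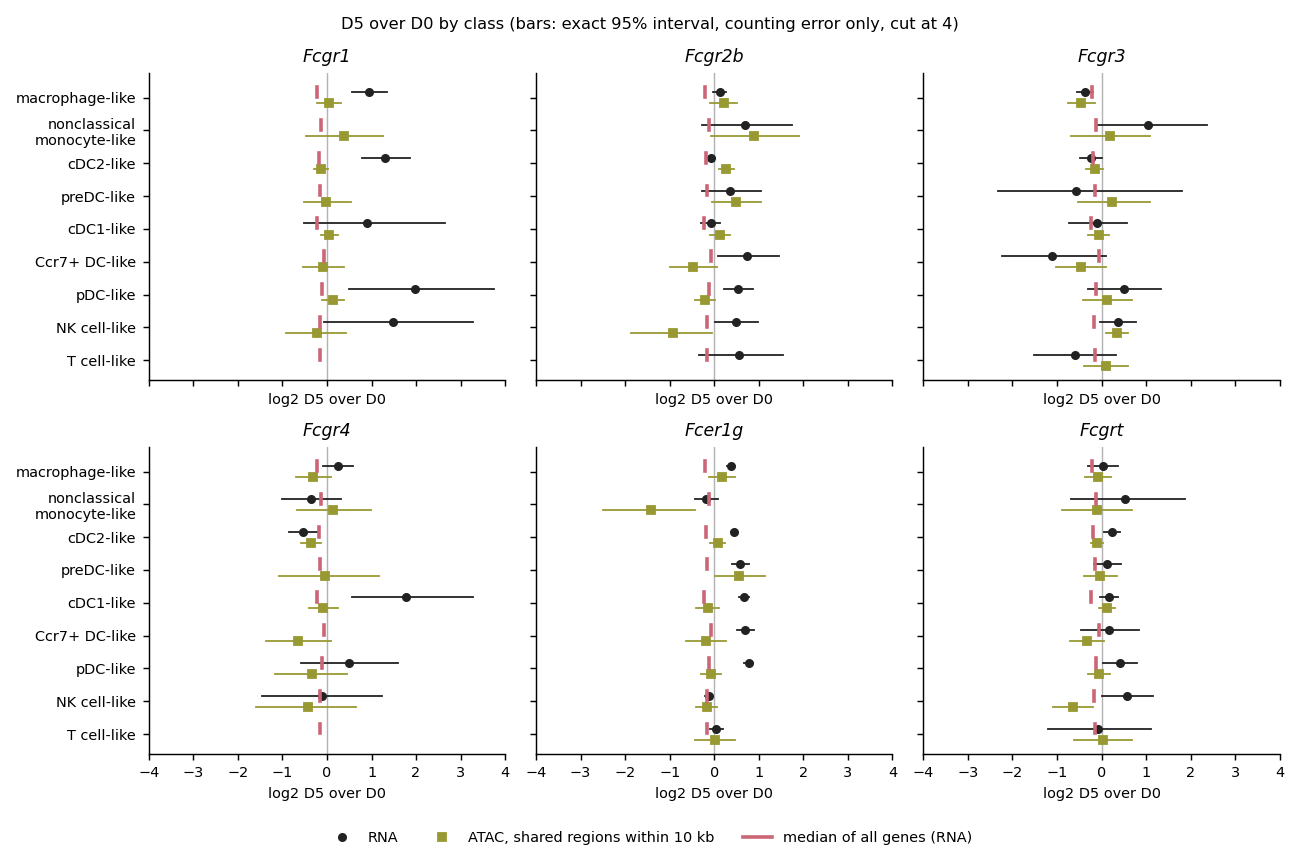
log2 ratio of D5 over D0 (horizontal axis) of RNA (black circles) and of accessibility in the shared regions (olive squares) for each gene by class (rows), with exact 95% intervals for counting error; red ticks mark the median of all genes in RNA, and pairs under 20 counts are left out. Fcer1g RNA lies right of 0 in the dendritic classes (0.44 to 0.77), and Fcgr1 RNA in cDC2-like and macrophage-like nuclei (1.30 and 0.94) while Fcgr1 accessibility there stays near 0 (-0.13 and 0.04).

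Around the receptors, genes of the pathway were read in cDC2-like nuclei, where the median over all genes was -0.18. Of all genes in this class 6.09% were higher and 21.1% lower, and the counts below stand beside these shares. Of 11 other genes listed as receptors of antibody or their relatives, 7 had enough counts, 0 were higher and 5 were lower at D5 (Fcer2a, Fcrl1, Fcrl5, Fcrla and Cd22, all known from B cells), with a median of -0.84. B cell markers in these nuclei summed to 33.4 CPM at D0 and 14.8 at D5, and their part was not tested. Fcrla was at 15.5 and 9.47 CPM in cDC2-like nuclei and at 96.2 and 84.8 CPM in pDC-like nuclei. In pDC-like nuclei B cell markers summed to 20.2 and 17.7 CPM. Fcrl1 went from 8.73 to 4.29 CPM (-1.02, -1.56 to -0.47). Of 5 counted receptors that signal through Fcer1g, 2 were higher and 2 lower, with a median of -0.31. Clec4n, which encodes the fungal receptor Dectin-2, was at 19.8 CPM at D0 against 33.6 at D5 (0.76, 0.45 to 1.09), and Clec4e, the gene of Mincle, was the other that was higher. Ncr1, an NK cell receptor, was at 23.4 and 7.74 CPM (-1.60, -1.94 to -1.24), while NK cell markers in these nuclei summed to 985 and 1045 CPM and T cell markers to 130 and 56.7 CPM. Ncr1 was at like levels in the other non-lymphoid classes, such as 24.4 and 6.75 CPM in cDC1-like and 29.4 and 7.22 CPM in macrophage-like nuclei at D0 and D5. The other lower gene was Clec4b1. Clec4e, Clec4b1 and the antibody receptors other than Fcrl1 are named because the counts are small, after their values were seen.

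Among the other adaptors, Cd247 and Hcst were lower and Tyrobp, the adaptor DAP12, was at 1154 and 1489 CPM. Of 13 kinases and substrates below the receptors, 1 was higher (Src, from 6 and 59 UMIs, -0.32 to 2.39) and 3 lower (Syk, Lcp2, Prkcd), with a median of -0.06, beside the 6.09% and 21.1% of all genes. Fgr, a Src-family kinase of myeloid cells, was at 189 and 257 CPM (0.45, 0.34 to 0.55), and Syk at 894 and 590 CPM. None of 5 genes that oppose Fc receptors, the phosphatase genes Inpp5d, Ptpn6 and Ptpn11 with Dok1 (an adaptor) and Pirb (an inhibitory receptor), was past 1.5-fold in either direction (median -0.15). B2m, the partner of Fcgrt, was at 2081 and 1756 CPM. In macrophage-like nuclei 0 of 13 kinases and substrates were higher and 2 lower, beside 5.78% and 22.3% of all genes in that class. Their median was -0.23, beside -0.22 over all genes.

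Across 19 points of class and day, each member's pattern of log2(CPM + 1) was compared with that of 11447 genes by Pearson's r, as a description, since points of a day share a library and its depth. The genes nearest to Fcgr1 were Clec4a2 (0.922), Clec4n (0.900), Igsf6 (0.887), Tgfbi (0.870) and Ms4a4c (0.866). Fcgr2b was nearest to Cd14 (0.941), Clec4a2 (0.915), Cd68 (0.909), Mcub (0.908) and Ltb4r1 (0.902). For Fcgr3 they were Neu1 (0.932), Por (0.881), Cebpb (0.877), Lilrb4a (0.877) and Lrmda (0.872). Fcgr4 was nearest to Sirpb1c (0.960), Adgre1 (0.930), Ear2 (0.925), Gm15832 (0.923) and Naip2 (0.918). Fcer1g went with Ypel3 (0.896), Ms4a6b (0.890), H2afj (0.880), Tyrobp (0.865) and Sorl1 (0.845), and Fcgrt with Rasgrp4 (0.861), Ckap4 (0.860), Heatr5a (0.855), Tep1 (0.850) and Slfn5 (0.846). Between members, r was highest for Fcgr1 and Fcgr2b (0.824) and for Fcgr3 and Fcgr4 (0.790), and Fcgrt ranged from -0.121 with Fcgr3 to 0.468 with Fcgr2b.

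Accessibility was read in the same nuclei as FPM, the fragments of a region scaled to a total of 1000000 peak fragments of the class. Regions are named by the distance of their centre from the start site, with a minus sign for upstream. Over the Fcgr1 start (chr3:96293580-96294416, centre at -29 bases, within the gene), macrophage-like nuclei had 19.0 FPM at D0 and 13.4 at D5 against 7.69 and 7.53 in cDC2-like nuclei, a log2 ratio of 1.31 (0.78 to 1.83) and 0.83 (0.37 to 1.27). NK cell-like nuclei had 1.62 and 1.40. The region with most fragments near Fcgr1 lay between genes at -7014 bases (chr3:96300578-96301388), with 38.7 and 44.2 in macrophage-like nuclei, 32 and 28.2 in cDC2-like nuclei, 32.3 and 35.9 in cDC1-like nuclei and 5.91 and 6.45 in NK cell-like nuclei. At D0 the cDC2-like and macrophage-like intervals overlapped there, and at D5 they did not. preDC-like, Ccr7+ DC-like and pDC-like nuclei ranged from 20.6 to 28.3. A further region at -8898 bases (chr3:96302466-96303269) was called in the D5 library alone. It held 22.4 FPM in macrophage-like nuclei (17.9–27.5), 16.4 in nonclassical monocyte-like nuclei (7.08–32.3) and 3.23 in cDC2-like nuclei (2.60–3.98), and 0 fragments in NK cell-like nuclei. D0 counts were not given for it, so no ratio between days was formed.

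The region over the Fcgr2b start (chr1:170975578-170976489, centre at 304 bases, within the gene) was open in dendritic classes and macrophage-like nuclei alike. It held 13.3 and 12.7 FPM in cDC2-like nuclei, 11.8 and 13.5 in macrophage-like nuclei, 11.1 and 9.82 in cDC1-like nuclei and 17.3 and 15.4 in pDC-like nuclei, but 1.62 and 0.841 in NK cell-like nuclei. Accessibility over the start therefore did not follow the order of Fcgr2b RNA among dendritic classes, where pDC-like nuclei were below cDC2-like nuclei. The upstream region at -2456 bases (chr1:170978358-170979229, in the body of Gm34968) went from 11.3 to 15.2 in cDC2-like nuclei (0.43, 0.11 to 0.75), and the region at 3140 bases (chr1:170972739-170973655, within Fcgr2b) from 5.44 to 8.55 (0.65, 0.21 to 1.12). The former was named after its values were seen, as was the latter. Over the 8 shared regions of the window the ratio in cDC2-like nuclei was 0.27 (0.10 to 0.44), and it was -0.062 over the start alone. Starts of Gm38204 and Gm10522 lie in the same window.

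Near Fcgr3, regions differed in the classes that opened them. The start (chr1:171058943-171059762, centre at 50 bases) had 14.6 and 12.3 FPM in macrophage-like nuclei and 14.4 and 11.5 in NK cell-like nuclei, against 4.54 and 3.16 in cDC2-like nuclei. Just upstream, at -1150 bases (chr1:171060111-171060996, in the body of Fcgr3 as RefSeq gives it), NK cell-like nuclei had 20.8 and 26.3 and T cell-like nuclei 24.9 and 31.5, while macrophage-like nuclei had 3.53 and 1.14 and cDC2-like nuclei 2.46 and 2.59. NK cell-like over cDC2-like nuclei gave a log2 ratio of 3.08 (2.44 to 3.79) at D0 and 3.34 (2.88 to 3.81) at D5. Inside the gene the picture was reversed. At 8419 bases (chr1:171050529-171051439), the region with most fragments, cDC2-like nuclei had 9.71 and 11.4 and macrophage-like nuclei 11.4 and 8.21, compared with 0.891 and 1.96 in NK cell-like nuclei. The region at 1941 bases held 14.3 and 10.7 in macrophage-like nuclei, 6.94 and 4.42 in cDC2-like nuclei and 1.05 and 1.26 in NK cell-like nuclei. The regions at -1150 and 1941 bases were chosen after their values were seen.

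Around Fcgr4, the region with most fragments lay at -1086 bases (chr1:171017424-171018245, between genes). Among the classes given here its values followed the order of the RNA. It held 28.0 and 40.0 FPM in nonclassical monocyte-like nuclei, 16.1 and 13.4 in macrophage-like nuclei and 8.70 and 6.71 in cDC2-like nuclei. Nonclassical monocyte-like over cDC2-like nuclei gave 1.69 (0.58 to 2.64) and 2.58 (1.82 to 3.25) on the log2 scale, from 10 and 19.5 fragments. Over the start (chr1:171018656-171019313, centre at 64 bases) cDC2-like nuclei went from 7.15 to 5.08 (-0.49, -0.92 to -0.05), and over the window of 5 shared regions from 25.1 to 19.5 (-0.37, -0.59 to -0.14). cDC1-like nuclei held 19.8 and 18.7 FPM over that window, overlapping cDC2-like nuclei on both days. Their Fcgr4 RNA was lower, at 1.69 and 5.77 CPM against 21.3 and 14.7, so the window did not follow the RNA between these classes. With this scaling Fcgr4 was the only member whose RNA and window were both lower at D5 in cDC2-like nuclei beyond the interval.

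The Fcer1g start (chr1:171233999-171234908, centre at -118 bases) was open in every class, with 19.3 and 22.7 FPM in cDC2-like nuclei, 23.9 and 24.0 in NK cell-like nuclei and 11.4 and 11.2 in cDC1-like nuclei, which were lowest in RNA too. The region at 2274 bases (chr1:171231608-171232516, within Fcer1g), chosen after its values were seen, held 31.1 and 29.4 in NK cell-like nuclei, 30.9 and 31.1 in T cell-like nuclei, 12.1 and 15.8 in macrophage-like nuclei and 7.15 and 6.63 in cDC2-like nuclei. NK cell-like over cDC2-like nuclei gave a log2 ratio of 2.12 (1.71 to 2.54) and 2.15 (1.79 to 2.50). Between days the window in cDC2-like nuclei was at 0.08 (-0.09 to 0.25), beside 0.44 in RNA. The start of Apoa2 lies in the same window.

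The Fcgrt start (chr7:45103404-45104321, centre at -64 bases) had 21.4 and 19.2 FPM in cDC2-like nuclei, 25.1 and 27.4 in preDC-like nuclei, 29.8 and 26.8 in macrophage-like nuclei and 2.59 and 2.38 in NK cell-like nuclei. preDC-like nuclei, with the highest Fcgrt RNA, overlapped macrophage-like nuclei at the start on both days. The region at -8490 bases (chr7:45111833-45112742, between genes), chosen after its values were seen, held 16.4 (9.17–27.0) and 16.2 (13–19.9) in preDC-like nuclei against 3.36 and 4.55 in cDC2-like nuclei, 6.36 and 6.76 in cDC1-like nuclei and 2.35 and 2.65 in macrophage-like nuclei. preDC-like over cDC2-like nuclei gave 2.28 (1.29 to 3.21) at D0 and 1.83 (1.42 to 2.24) at D5 on the log2 scale.

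**Figure D5:**
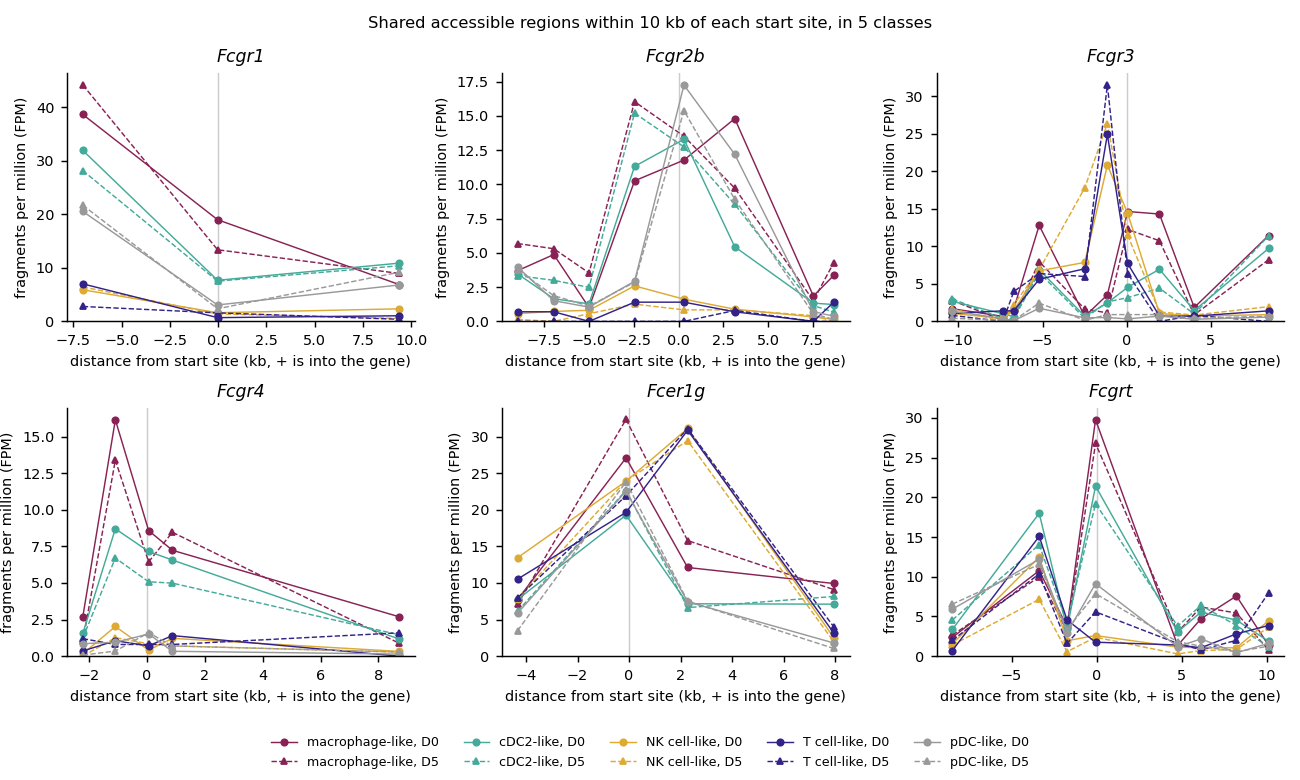
Accessibility in FPM (vertical axis) in each shared region by the distance of its centre from the start site in kb (horizontal axis) for 5 classes at D0 (circles, solid lines) and D5 (triangles, dashed lines); lines join regions only to guide the eye. NK cell-like and T cell-like nuclei peak just upstream of Fcgr3 (20.8 to 31.5) and inside Fcer1g (29.4 to 31.1), and macrophage-like and cDC2-like nuclei at the start of Fcgrt (19.2 to 29.8).

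Calls between days were counted for regions as for genes. In cDC2-like nuclei 3 of 35 counted regions were at least 1.5-fold higher at D5 and 3 lower, beside 5.23% and 17.7% of all shared regions (median of all regions -0.12). preDC-like nuclei had 7 higher and 0 lower of 21, beside 16.7% and 17% (median -0.01), and 1 of the 7 went beyond its counting interval, at 7952 bases from the Fcer1g start in the body of Apoa2 (1.63, 0.01 to 3.95). Ccr7+ DC-like nuclei had 0 higher and 5 lower of 19, beside 11.8% and 12.7%. Over the 9 classes 19 of 177 pairs of region and class were higher and 18 lower, beside 7.77% and 14.6%. TMM factors shifted accessibility by 0.05 to 0.28 on the log2 scale. Over the whole windows, those of Fcgr1 were at -0.13 (-0.29 to 0.02) in cDC2-like and 0.04 (-0.23 to 0.32) in macrophage-like nuclei, where the RNA was higher by 1.30 and 0.94. The Fcgr3 window was lower in macrophage-like nuclei (-0.46, -0.76 to -0.15), as was its RNA, and higher in NK cell-like nuclei (0.35, 0.11 to 0.59), where the start alone gave -0.33.

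RNA level and window accessibility were set side by side over 18 points of class and day, which share libraries and depth. Pearson's r was 0.75 for Fcgrt, 0.74 for Fcgr4, 0.72 for Fcgr3, 0.68 for Fcer1g, 0.56 for Fcgr2b and 0.43 for Fcgr1.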

How the data were processed

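The authors deposited raw counts, namely UMI counts per gene for called barcodes and joint matrices with UMI counts and Tn5 peak counts for all barcodes. Uncalled barcodes were read from the joint matrices. Per the labels reads were processed with Cell Ranger ARC 2.0.2 on mm10, and the header of the deposited RNA matrices names Cell Ranger 6.0.2. Peaks were called in each library by itself. Of the entries in the peak matrices 70.4% at D0 and 75.1% at D5 equal 2, so peak counts were halved to fragments. Rows of the joint and RNA matrices were matched by identical counts for all 16260 and 27873 called barcodes, since the D5 joint barcodes were not used here.

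Barcodes under 1000 UMIs or above 10% mitochondrial UMIs were dropped, and doublets were removed by a score above 0.2 (scanpy 1.11.5, Scrublet), because the score's own threshold would have called 42.0% of D0 and 9.99% of D5 barcodes. After 2000 variable genes, 30 components and 15 neighbours (Leiden, resolution 1), a cluster was named where at least 60% of a class's markers, and at least 3, were raised 2-fold, thresholds set after the clusters were seen. Within cDC2-like and preDC-like nuclei (resolution 0.5) the fold was 1.25 and a rival list reached at most 60% of the best one's share. Of 20 clusters 6 stayed unnamed, either because markers of unrelated classes were raised together or because other genes led them. The members and gene lists, kept out of clustering, were chosen with earlier results of these data known.

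UMIs were summed by class and day and given as CPM with exact Poisson, and shares with Clopper-Pearson, 95% intervals. D5 over D0 has the exact conditional binomial interval. UMIs and fragments are not fully free of duplicates, and intervals cover counting error only. A count of 0 was taken to allow 3 counts. Regions were shared between libraries where peaks overlapped by at least 1 base. Named were all members, the 2 highest and 2 lowest listed genes in cDC2-like nuclei with at least 20 UMIs on each day, the 5 most alike genes per member (at least 200 UMIs), and the regions over the start and with most fragments. No count model was fitted. TMM factors came from edgeR 4.0.16. The ratio and its interval were tested on counts simulated with Poisson error alone. That test checks the calculation and does not cover variation between nuclei, mice or libraries, or free RNA. Promoters came from RefSeq tables, where all 6 members had an entry, and the entry starting nearest the site in the files was used. Other alternatives were no or stricter doublet removal, 2000 UMIs, thinning, other resolutions, subtraction of the T cell-like level and other windows, overlaps and depths for peaks.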

Additional observations from a re-analysis of the deposited data

Results flagged for a closer look

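Several ratios of D5 over D0 pointed one way in some classes and the other way in others, each beyond its counting interval. With 1 library per day the difference between classes was not tested, and log2 values follow. Fcgr4 RNA was at 1.78 in cDC1-like nuclei (6 and 53 UMIs, at or below the T cell-like level) and -0.53 in cDC2-like nuclei.

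Fcer1g RNA was at 0.67 in cDC1-like, 0.44 in cDC2-like, 0.59 in preDC-like, 0.70 in Ccr7+ DC-like, 0.77 in pDC-like and 0.38 in macrophage-like nuclei, against -0.13 in NK cell-like nuclei, whose sign depends on the processing.

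In accessibility over the windows, Fcgr2b was at 0.27 in cDC2-like and -0.92 in NK cell-like nuclei (47.5 and 14.5 fragments), but the former was at -0.062 over the start alone and the latter at 0.18 without removal of doublets. Fcgr3 was at 0.35 in NK cell-like (-0.33 over the start alone) and -0.46 in macrophage-like nuclei. Fcer1g, whose window also holds the start of Apoa2, was at 0.55 in preDC-like and -1.42 in nonclassical monocyte-like nuclei (26.5 and 13.5 fragments). The cause was not tested for any of them.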

How the results depend on the processing

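No paired analysis was possible because each day has 1 library per layer, and for the same reason no replicate could be left out. A stricter doublet limit of 0.15, no filter on low counts, an overlap of 50% for shared peaks, TMM on peaks and a minimum of 2000 peak counts left each value computed under them within its counting interval, or each count within 1.5 times. The cause of the moves below was not tested, and log2 ratios are meant unless a percent is given. Clusters were formed and named anew under each doublet, 2000-UMI and resolution setting, so a class could differ in make-up. Subtraction of the T cell-like level gave no value where a level was not above it.

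Without removal of doublets Fcgr2b RNA in cDC2-like nuclei (D5 over D0) was at -0.24, Fcer1g RNA in NK cell-like nuclei reversed to 0.21, and Fcgr2b and Fcgrt accessibility in NK cell-like nuclei reversed to 0.18 and 0.063. Pairs of member and class were 22 higher and 0 lower, beside 8.18% and 20.1% of all pairs. In this setting the clusters led by Ifitm1 (310 and 2985 nuclei) and Adgrl3 (330 and 329) stayed unnamed and left the cDC2-like class. A further cluster of 1391 and 1487 nuclei was named NK cell-like, and no nonclassical monocyte-like class was named. Macrophage-like over cDC2-like nuclei was at 1.73 for Fcgr1 at D5 and at 2.39 (D0) and 2.13 (D5) for Fcgr3, cDC2-like over cDC1-like at 1.26 for Fcgr2b at D5, preDC-like over cDC2-like at 1.68 for Fcgrt at D5, and NK cell-like over cDC2-like for Fcer1g at 0.050 at D0 and reversed to -0.13 at D5. The Fcgr2b share was 68.6% (D0) and 71.7% (D5) in NK cell-like and 68.6% (D5) in macrophage-like nuclei.

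TMM scaling gave 0.14 for Fcgr2b, 0.66 for Fcer1g and 0.45 for Fcgrt RNA in cDC2-like nuclei, reversed Fcer1g in NK cell-like nuclei to 0.044, and left 25 pairs higher and 1 lower, beside 15.4% and 10.7% of all pairs. NK cell-like over cDC2-like was then at 0.56 (D0) and reversed to -0.055 (D5) for Fcer1g, and preDC-like over cDC2-like at 1.62 (D5) for Fcgrt.

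With at least 2000 UMIs per nucleus D5 over D0 in cDC2-like nuclei was at -0.19 for Fcgr2b and 0.32 for Fcer1g. The cluster led by Il1r2 and Ifitm1 (87 and 2334 nuclei) was then unnamed and outside that class, and no NK cell-like class was named. Macrophage-like over cDC2-like was at 1.89 (D0) and 2.05 (D5) for Fcgr1 and 2.32 (D5) for Fcgr3, cDC2-like over cDC1-like at 1.87 (D0) and 1.73 (D5) for Fcgr2b, and preDC-like over cDC2-like at 1.44 (D0) for Fcgrt. The Fcgr2b share in cDC2-like nuclei was 86.5% at D5. Thinned nuclei gave -0.20 for Fcgr2b in cDC2-like nuclei, 1.38 for Fcgr2b in cDC2-like over cDC1-like at D5, a share of 88.5% at D0 and 0 pairs lower, beside 19.1% of all pairs.

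Subtraction of the T cell-like level gave -0.21 for Fcgr2b and -1.85 for Fcgr4 in cDC2-like nuclei. Fcgr2b in cDC2-like over cDC1-like was at 2.09 and 2.62, Fcgr3 in macrophage-like over cDC2-like at 5.52 (D5), Fcgr4 in nonclassical monocyte-like over cDC2-like at 5.34 (D5), and Fcgrt in preDC-like over cDC2-like at 2.43 and 2.21. The 5.52 rests on a small cDC2-like remainder, and the T cell-like class also carried NK cell markers. At a clustering resolution of 0.6 Fcer1g in NK cell-like over cDC2-like was at 0.74 (D0) and the Fcgr2b share in macrophage-like nuclei 62.7% (D5). At 1.5, and without the cluster led by Adgrl3 (chosen after seeing the data), Fcgr2b in cDC2-like nuclei was at -0.20 and -0.19.

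Without thinning, shares of cDC2-like nuclei with a UMI at D0 and D5 were 1.29% and 4.46% for Fcgr1, 29.4% and 37.9% for Fcgr2b, 6.00% and 7.10% for Fcgr3, 3.88% and 4.00% for Fcgr4, 67.5% and 88.7% for Fcer1g and 12.1% and 19.5% for Fcgrt. With the start region alone, accessibility reversed to -0.062 for Fcgr2b in cDC2-like and to -0.33 for Fcgr3 in NK cell-like nuclei, and Fcgr3 in cDC2-like nuclei was at -0.52, or at -0.45 with a window of 2 kb. In all, 10 accessibility ratios moved and 2 reversed with the start region alone, 6 moved with 2 kb and 1 with all peaks of each library, which sets a region called on 1 day alone to 0 on the other. The rest are not listed singly.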

Other observations

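Member levels in 2 small clusters that stayed unnamed are given here as values chosen after they were seen. A cluster led by Ptprb and Stab2, genes of sinusoidal endothelium, held 34 nuclei at D0 and 5 at D5 and also raised hepatocyte markers. Its Fcgr2b level was 1249 CPM (1016–1521) at D0 and 158 CPM at D5, beside 334 and 362 CPM in macrophage-like nuclei. A cluster led by Cxcl9, Cxcl10 and Ifit1, genes induced by interferons, held 128 and 78 nuclei. Fcgr1 had no UMI at D0, which allows up to 9.42 CPM, and stood at 76.8 CPM (47.5–117) at D5 there, with Fcgr4 at 31.4 and 80.5 CPM (log2 ratio 1.36, 0.22 to 2.60), overlapping the macrophage-like levels at D5, while Fcgr2b was at 94.2 and 98.7 CPM. Both clusters come from 1 library per day and cannot be told from a trait of that library.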
